A study of Homo sapiens with 4 samples.

Results

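Divergent gene pairs are neighbouring genes that are transcribed away from each other, one on each DNA strand, from start sites so close together that they lie within a single promoter region. Here a pair was formed by 2 GENCODE protein-coding genes on opposite strands of chromosomes 1 to 22 or X, with the canonical start site of the minus-strand gene lying 1 to 1000 bp below that of the plus-strand gene. By this rule, which used positions only and no measurement, 984 pairs were found. They held 1895 of the 19970 coding genes with a canonical start site on these chromosomes, or 9.49%. The remaining 18075 coding genes had no such partner and are called unpaired.

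To ask how these shared promoters were marked in triple-negative breast cancer cells, peak lists of chromatin immunoprecipitation followed by sequencing (ChIP-seq) for H3K27ac, the acetylated histone H3 found at active promoters and enhancers, were examined. Both lines used, MDA-MB-231 and Hs578T, are established from human breast tumours and lack hormone receptors. Per the labels the cells were starved in Opti-MEM for 8 h, then exposed for 48 h to TWEAK, a cytokine, at 10 ng/ml, with 72 h of washout. The study describes a longer wash-off, so the time without TWEAK is uncertain. Both groups thus shared the same treatment. Without TWEAK-free or TWEAK-treated libraries, which were not used here, every value describes cells after washout and none describes an effect of TWEAK.

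Head-to-head pairs are a common arrangement in compact parts of mammalian genomes. Their shared promoters are typically CpG islands without a TATA box, and many of the genes serve housekeeping roles in DNA repair, mitochondria, translation or chromatin. Because RNA polymerase starts in both directions, the stretch between the start sites is upstream of both genes at once, and the sequence downstream of either gene start is the transcribed body of that gene.

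The lists labelled MDA-MB-231 replicate 2, Hs578T replicate 1 and Hs578T replicate 2 held 43353, 46330 and 44920 peaks on these chromosomes, and values are given in this order throughout. In contrast, only 209 peaks were listed for MDA-MB-231 replicate 1, overlapping 0.0601% of coding promoters and none of the 984 pairs, so MDA-MB-231 is represented by 1 list and no comparison between lines was tested. Over the 841 pairs with both start sites in the same peak in the 3 large lists, the fold enrichments of MDA-MB-231 replicate 2 correlated with those of the Hs578T replicates at Spearman's rho of 0.914 and 0.891, and the Hs578T replicates with each other at 0.955. Running numbers in the peak names showed that 1570, 1095 and 1081 called peaks were not in the 3 large lists used here, so a promoter lying where the numbers jump cannot be read as unmarked. The authors removed blacklisted regions after calling peaks. Read depth was not given in the sources used here.

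The stretches between start sites are shown first, for pairs that recur in the results. Coordinates are hg38, letters are the plus strand, 5′ to 3′, and capitals mark the letters of any of 7 promoter motifs on either strand: the GC box GGGCGG bound by SP1, CCAAT bound by NF-Y, the ETS site CCGGAAGT, the sites of NRF1 and YY1, the TATA box TATAAA, and the AP-1 sites TGACTCA and TGAGTCA. Matches describe letters and not binding. Each stretch runs from the base after the minus-strand start, or is the longest part of that interval that no annotated exon covers. The first 2 were chosen, after the values were seen, because they hold the ETS letters more than once, the motif whose frequency differed most, as a ratio, between paired and unpaired promoters. METTL6 encodes a tRNA methyltransferase, EAF1 a factor of transcription elongation, and POLDIP2 a partner of DNA polymerase delta.
METTL6/EAF1, chr3:15427545-15427597, plus strand: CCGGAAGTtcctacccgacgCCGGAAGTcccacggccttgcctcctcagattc
POLDIP2/TMEM199, chr17:28357528-28357641, plus strand: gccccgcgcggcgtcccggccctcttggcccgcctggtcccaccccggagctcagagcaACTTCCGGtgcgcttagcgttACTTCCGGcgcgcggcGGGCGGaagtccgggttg
The next stretch lies between SARS2, the mitochondrial seryl-tRNA synthetase, and MRPS12, a protein of the mitochondrial ribosome. It carried CCAAT 4 times and GGGCGG once.
SARS2/MRPS12, chr19:38930764-38930943, plus strand: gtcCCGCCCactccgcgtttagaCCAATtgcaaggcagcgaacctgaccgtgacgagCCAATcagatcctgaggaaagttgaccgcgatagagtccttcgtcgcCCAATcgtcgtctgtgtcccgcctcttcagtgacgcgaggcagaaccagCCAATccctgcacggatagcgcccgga
A pair of histone H2A and H2B promoters is shown for contrast, since H2BC11/H2AC11 was marked in each large list and H2AC7/H2BC7 in none. They carried CCAAT 4 and 3 times, and TATAAA 3 times and not at all.
H2BC11/H2AC11, chr6:27132796-27133042, plus strand: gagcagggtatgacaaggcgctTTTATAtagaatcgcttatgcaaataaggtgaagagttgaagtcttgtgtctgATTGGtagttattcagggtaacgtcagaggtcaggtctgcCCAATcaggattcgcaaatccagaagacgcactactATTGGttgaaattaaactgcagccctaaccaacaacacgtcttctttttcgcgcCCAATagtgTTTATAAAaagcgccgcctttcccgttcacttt
H2AC7/H2BC7, chr6:26199294-26199515, plus strand: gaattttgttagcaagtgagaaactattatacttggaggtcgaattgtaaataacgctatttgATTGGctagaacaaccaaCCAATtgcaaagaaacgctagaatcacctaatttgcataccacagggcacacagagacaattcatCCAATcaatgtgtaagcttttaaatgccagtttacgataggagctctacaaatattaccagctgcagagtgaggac
A marked and an unmarked pair of collagen genes follow, COL4A1/COL4A2 of the common basement membrane collagen and COL4A4/COL4A3 of the kidney filter. Their GC contents over these stretches were 78.0% and 72.6%. The second is a part of the 418 bases between its starts, which held GGGCGG 2 times outside the printed part.
COL4A1/COL4A2, chr13:110307158-110307257, plus strand: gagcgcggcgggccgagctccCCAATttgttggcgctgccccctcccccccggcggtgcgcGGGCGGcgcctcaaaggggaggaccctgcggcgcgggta
COL4A4/COL4A3, chr2:227164206-227164395, plus strand: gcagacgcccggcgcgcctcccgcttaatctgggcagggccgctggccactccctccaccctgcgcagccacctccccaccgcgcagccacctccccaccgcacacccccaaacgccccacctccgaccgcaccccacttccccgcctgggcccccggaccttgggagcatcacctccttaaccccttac
The last 2 are KIF18A/METTL15, whose KIF18A the study names among dependency genes, and DNAI7/ETFRF1, where the peaks covered the start of only 1 gene.
KIF18A/METTL15, chr11:28108157-28108247, plus strand: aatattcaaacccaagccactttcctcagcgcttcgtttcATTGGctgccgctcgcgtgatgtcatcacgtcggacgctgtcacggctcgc
DNAI7/ETFRF1, chr12:25195163-25195215, plus strand: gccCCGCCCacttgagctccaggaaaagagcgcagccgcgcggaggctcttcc

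Start sites of a pair lay between 11 and 1000 bp apart, with a median of 233.5 bp and quartiles of 122 and 401.75 bp. By distance, 188 pairs lay up to 100 bp apart, 232 more up to 200 bp, 204 more up to 300 bp, 186 more up to 500 bp and 174 more up to 1000 bp. Outside the rule, a further 70 pairs lay more than 1000 and up to 1500 bp apart, and 45 more up to 2000 bp. The 984 pairs formed 912 separate loci, because 72 genes belonged to more than 1 pair, 62 pairs included a gene known only by an Ensembl identifier, and 14 included a readthrough gene. Paired genes were spread over every chromosome examined, from 6.17% of the coding genes of chromosome X to 13.8% of those of chromosome 14. Just inside the limit were ATP6V1G2/NFKBIL1 at 1000 bp, HNRNPA2B1/CBX3 at 999 bp and PASK/PPP1R7 at 995 bp. Just outside were ABHD14B/ABHD14A-ACY1 at 1011 bp, ABHD14B/ABHD14A at 1015 bp and USH1G/OTOP2 at 1018 bp.

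Nearly every divergent promoter carried an H3K27ac peak. A promoter was counted as marked if any part of a peak lay within 1 kb of its canonical start site. By the rule, this window also holds the partner's start for every paired promoter. A paired promoter could therefore count as marked through a peak on its partner alone, which most unpaired promoters could not. How much this adds to the difference between the classes was not tested. Of the 1895 paired promoters, 93.9% (95% Wilson interval 92.8 to 94.9%), 93.7% and 92.7% were marked in MDA-MB-231 replicate 2, Hs578T replicate 1 and Hs578T replicate 2. For comparison, 58.1%, 58.2% and 56.4% of all coding promoters were marked, and 54.3%, 54.5% and 52.6% of unpaired ones. The mean over the 3 lists was 93.5% ± 0.648 (SD, n = 3 lists) for paired promoters and 53.8% ± 1.05 for unpaired ones. Paired promoters were the higher class in each list, and the lists of the classes did not overlap.

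The difference between the classes was 39.6 percentage points in MDA-MB-231 replicate 2 (95% Newcombe interval 38.3 to 40.9), 39.2 in Hs578T replicate 1 and 40.1 in Hs578T replicate 2. Its mean of 39.7 ± 0.456 points (SD, n = 3) was far larger than the spread between lists. In an exact sign-flip test over the 3 lists (two-sided) p was 0.25, the smallest value 3 lists can give, so no such test here could pass 0.05. Intervals on shares cover counting error only, and neighbouring promoters are not independent. When the start base itself had to lie in a peak, the paired shares were 90.2%, 90.0% and 88.5%, against 52.8%, 53.1% and 49.9% of all coding start sites and 48.9%, 49.2% and 45.8% of unpaired ones.

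Unpaired genes are a mixed class, so they were divided by their neighbours. In 1874 of them a long noncoding RNA (lncRNA) started divergently within 1 kb, and 81.1%, 80.7% and 79.2% of these promoters were marked. In 112 the start sites of opposite-strand coding genes overlapped rather than diverged, and 85.7%, 85.7% and 83.9% were marked. The 16089 genes with neither kind of partner were marked in 51.0%, 51.2% and 49.3%. Paired promoters thus lay above each of these classes in every list, by 8.22 points (95% Newcombe interval 2.79 to 15.9) over the overlapping starts in MDA-MB-231 replicate 2.

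**Figure D1:**
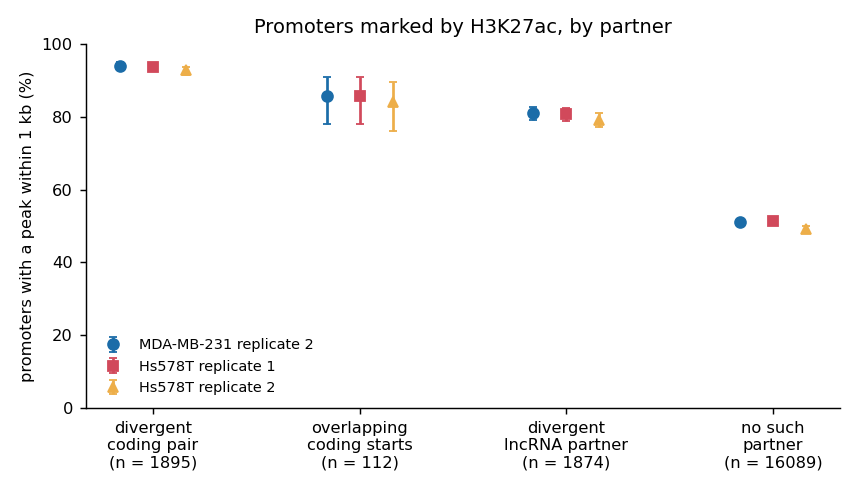
Share of promoters (%) with a peak within 1 kb of the start site, for 4 classes of coding gene in the 3 large lists, with 95% Wilson intervals as bars. Paired promoters sit between 92.7% and 93.9%, and genes with no such partner between 49.3% and 51.2%.

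CpG content moved with the class. The CpG ratio is the observed number of CG dinucleotides over that expected from the base content, taken over the 1 kb around the start. Its median was 0.784 for paired and 0.714 for unpaired genes, and 82.1% against 57.8% of promoters were CpG-rich, with a ratio of at least 0.6 and a GC content of at least 55%. Among genes with a ratio of 0.8 or more, 97.1% of 857 paired and 79.2% of 5871 unpaired promoters were marked in MDA-MB-231 replicate 2, a difference of 17.8 points (95% Newcombe interval 16.2 to 19.3). With a ratio from 0.6 to 0.8 the shares were 94.4% and 69.4%, and from 0.4 to 0.6 they were 84.4% of 109 paired and 37.5% of 1671 unpaired promoters. At equal CpG ratio the difference was thus smaller than over all promoters at the CpG-rich end, and larger from 0.4 to 0.6. Paired genes with lower ratios were few, and 5 of 13 below 0.2 and 12 of 27 from 0.2 to 0.4 were marked in that list, against 7.72% of 2111 and 16.6% of 2787 unpaired promoters. The differences in these bins were 30.7 points (95% Newcombe interval 9.95 to 56.8) and 27.9 points (10.9 to 46.2). Restricted to CpG-rich promoters of both classes, the mean difference over the 3 lists was 21.8 points. The part that CpG content plays in the difference was not tested further.

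The calls were shared between lists. Of the paired promoters, 1755, or 92.6%, were marked in all 3 lists, compared with 55.6% of all coding promoters. Among promoters marked in any list, 98.6% of the paired and 92.9% of the unpaired ones were marked in all 3. Counted as pairs, with a peak anywhere from 1 kb below the minus-strand start to 1 kb above the plus-strand start, 914 were marked in 3 lists, 11 in 2, 1 in 1 and 58 in none. No pair was marked in both Hs578T lists and not in MDA-MB-231 replicate 2, a pattern seen in 0.396% of all coding promoters. The reverse pattern, seen in 0.731% of all coding promoters, held for 1 pair, BSCL2/GNG3, which joins the seipin gene of lipid droplets with a G-protein gamma subunit of neurons. Its peak in MDA-MB-231 replicate 2 was 2418 bp wide with a fold enrichment of 6.87, lay within 1 kb of the pair and covered neither start.

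A single peak usually covered both start sites. This was so for 869 pairs (88.3%) in MDA-MB-231 replicate 2, 870 (88.4%) in Hs578T replicate 1 and 852 (86.6%) in Hs578T replicate 2, or 87.8% ± 1.03 (SD, n = 3). In no list were the start sites of a pair covered by 2 different peaks. Exactly 1 start lay in a peak in 39, 34 and 42 pairs. The state of a pair was identical in the 3 lists for 925 pairs (94.0%), and 841 (85.5%) had both starts in 1 peak each time.

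By distance, both starts lay in 1 peak in MDA-MB-231 replicate 2 for 88.8% of pairs up to 100 bp apart, 87.5% of those up to 200 bp, 92.2% up to 300 bp, 92.5% up to 500 bp and 79.9% up to 1000 bp, each bin starting where the last ended. Outside the rule the share was 55.7% up to 1500 bp and 48.9% up to 2000 bp. To set these values beside a background, pairs with at least 1 start in a peak were compared with peaks on unpaired starts, asking how often such a peak ran upstream by the same distances. Given 1 covered start, the other was in the same peak for 95.7%, 96.2% and 95.3% of pairs, whereas 84.0%, 85.3% and 85.3% of the unpaired peaks reached as far. The classes were close up to 100 bp, with 98.2% and 95.5% in Hs578T replicate 1, and the value for unpaired peaks lay inside the Wilson interval of the pairs (94.9 to 99.4%). Above 500 and up to 1000 bp the pairs reached 87.4%, 87.4% and 82.5%, against 57.0%, 59.4% and 58.6%.

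**Figure D2:**
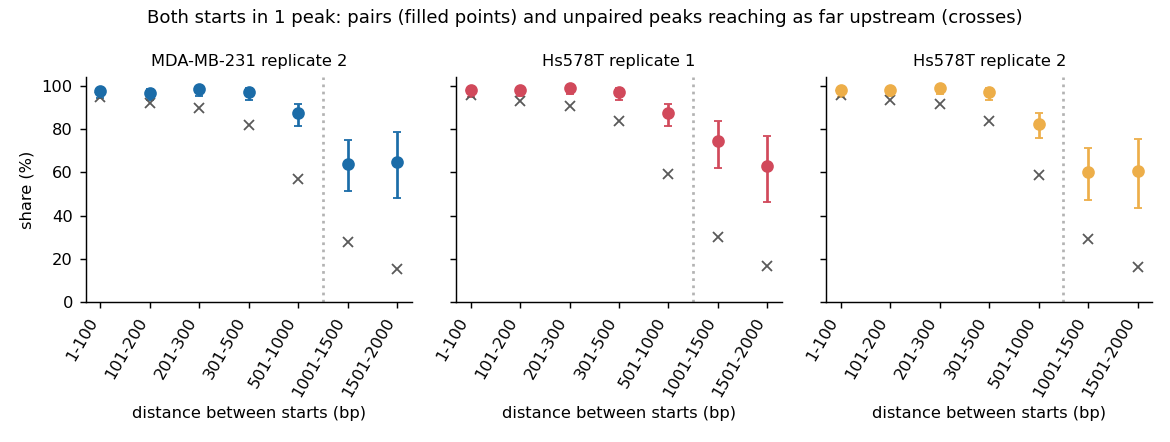
Share (%) of pairs with at least 1 start in a peak whose 2 starts lay in the same peak, by distance between the starts in bp, one panel per list, with 95% Wilson intervals (filled points). Crosses give the share of peaks on unpaired starts that reached as far upstream, and the dotted line is the 1000 bp limit of the rule. Points and crosses lie together at short distances and part to 87.4% and 57.0% in the bin from 500 to 1000 bp in MDA-MB-231 replicate 2.

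Peaks on divergent promoters ran less far into the gene than peaks on unpaired promoters. From the start site to the downstream edge of its peak the median was 785, 840 and 793 bp for paired starts and 965, 997 and 971 bp for unpaired ones. Upstream of unpaired starts the peaks ran 771, 804 and 791.5 bp, so the paired gene bodies were covered about as far as the upstream side of an unpaired promoter. Seen from its own start, the centre of the peak covering it lay upstream for paired genes, at -122.5, -124.5 and -128.5 bp, and downstream for unpaired genes, at 101.5, 102 and 89.25 bp. Seen from the midpoint of the pair, the centre lay at -12.5, -12.5 and -10 bp, close to 0. These 2 views are linked by the rule, since the partner's gene body is upstream of each start.

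The difference in reach was also present without other starts nearby. Another coding start lay in the pair's peak for 14.4%, 15.3% and 14.8% of pairs in 1 peak, and 9.31%, 9.73% and 9.43% of unpaired starts shared their peak with another. Without these, the median reach was 777.5, 828 and 784.5 bp for pairs, against 958, 990 and 962 bp downstream of unpaired starts. Among CpG-rich promoters the same quantities were 781.5, 831 and 789.5 bp, against 991.5, 1041 and 1011.5 bp.

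**Figure D3:**
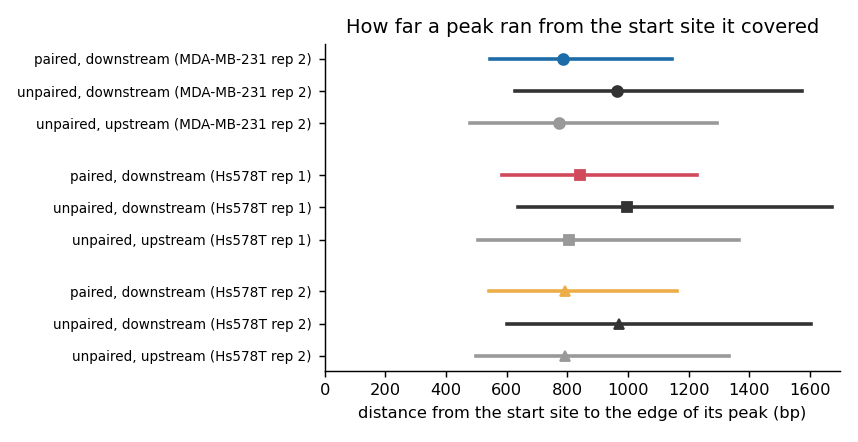
Distance in bp from a start site to the edge of the peak covering it, as median (point) and quartiles (line), for paired starts downstream, unpaired starts downstream and unpaired starts upstream in each of the 3 large lists. Medians of paired starts (785 to 840 bp) lie below those of unpaired starts downstream (965 to 997 bp).

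Within a pair the reaches on the 2 sides of the same peak differed by a median of 362, 399 and 371 bp. The longer side was on the same gene in all 3 lists for 621 of 841 pairs (73.8%), on the minus-strand gene in 325 and on the plus-strand gene in 296. The difference between the reaches had a Spearman's rho between lists of 0.850, 0.832 and 0.829 over these 841 pairs, as a description. Neither strand held the longer side in most pairs, while the side itself recurred between the lists.

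Peak width and strength were next compared with those of unpaired promoters. The median width of the strongest peak at a marked paired promoter was 1877, 2040.5 and 1869 bp, and at an unpaired one 1772, 1864 and 1774 bp, a mean difference of 126 ± 44.4 bp (SD, n = 3). The direction was shared by the 3 lists, but it turned to -32.0 bp when only pairs within 300 bp were taken and to -63.0 bp in the strongest 50% of peaks. With the start base itself in a peak it lay between -19.0 and 120.5 bp over the 3 lists. Promoters with a divergent lncRNA had wider peaks than either, at 2078, 2161.5 and 2073.5 bp. Those of the 112 genes with overlapping coding starts were wider still, at 2166, 2507.5 and 2210 bp. Widths of paired and unpaired peaks differed less at high CpG ratio, with 2030 and 1979.5 bp at 0.8 or more in MDA-MB-231 replicate 2.

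Strength was taken as the percentile of fold enrichment, the authors' ratio of signal over local background, among all peaks of the same list. Its median was 77.2, 75.9 and 73.8 for marked paired promoters and 71.2, 69.8 and 67.1 for unpaired ones. The mean difference of 6.29 ± 0.380 percentile points (SD, n = 3) was larger than the spread between lists, which is a spread over the same promoters. In MDA-MB-231 replicate 2 the quartiles of the classes overlapped widely, at 63.1 to 88.6 for paired and 52.4 to 85.5 for unpaired promoters. The exact sign-flip p was again 0.25 for width and for strength. The difference kept its direction but was 2.19 points in the strongest 50% of peaks and 3.30 points for pairs within 300 bp. These strongest peaks were chosen by the score in the list and not by fold enrichment. Promoters with a divergent lncRNA stood at 77.3, 75.9 and 73.9, level with the coding pairs. Those of the 112 genes with overlapping coding starts stood above the pairs, at 83.1, 82.6 and 81.6.

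Width and strength changed with the distance between the starts. Among pairs in 1 peak, the median width in MDA-MB-231 replicate 2 went from 1588 bp for starts up to 100 bp apart to 2311 bp for those over 500 bp apart. After subtracting the distance itself, the corresponding medians were 1532 and 1649 bp, with the highest, 1812.5 bp, between 300 and 500 bp. Spearman's rho of width and distance was 0.324, 0.296 and 0.296, and that of width minus distance and distance was 0.0745, 0.0679 and 0.0540. The fold percentile was 73.6 and 85.4 in these 2 bins in MDA-MB-231 replicate 2, 74.4 and 82.2 in Hs578T replicate 1, and 70.4 and 84.6 in Hs578T replicate 2. A pair enters these medians only if its peak is longer than its distance, which removes narrow peaks at wide spacing. Over every pair with a peak within 1 kb, an alternative added after the values were seen, the percentiles in these 2 bins were 73.2 and 81.0, 74.1 and 76.7, and 70.4 and 77.2. The highest medians, 82.7, 81.7 and 80.0, were then between 300 and 500 bp.

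**Figure D4:**
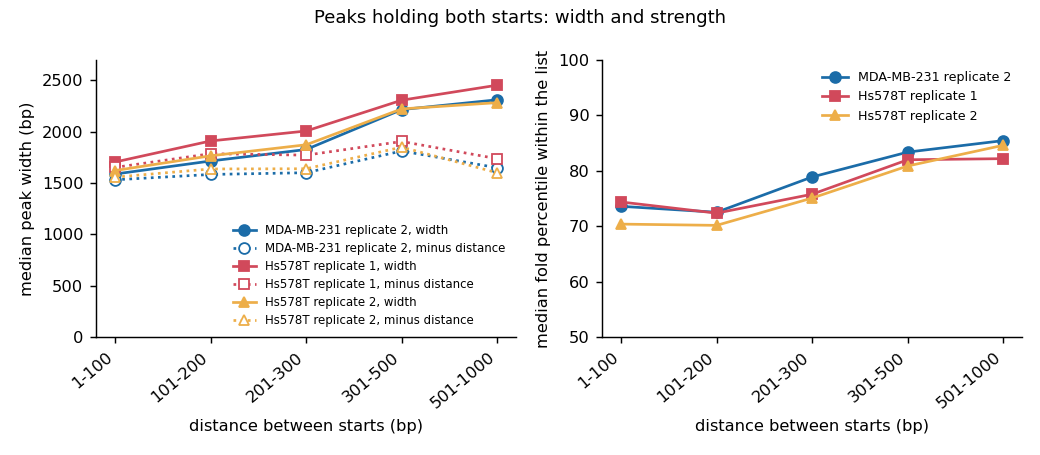
Left, median width in bp of peaks holding both starts, by distance between the starts (solid lines), and the same after subtracting that distance (dotted lines), in the 3 large lists. Right, median fold percentile of the same peaks within the list, on an axis from 50 to 100. Width goes from 1588 to 2311 bp in MDA-MB-231 replicate 2 while width minus distance stays between 1532 and 1812.5 bp.

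The strongest peaks over pairs reached the top of each list, and some also held the start of a neighbouring gene. HCFC1/TMEM187, with the gene of the transcriptional coregulator host cell factor, had fold enrichments of 39.5, 42.5 and 30.5. HCFC1R1/THOC6, where THOC6 encodes a subunit of the mRNA export complex THO, had 41.5, 41.0 and 29.8. Its peaks were 4667, 4809 and 4886 bp wide and ran 4074, 4182 and 4169 bp beyond the minus-strand start, and they also held the start of TNFRSF12A, the gene of the TWEAK receptor Fn14. The next 3 were C11orf68/DRAP1, ST7L/CAPZA1 with an actin capping protein, and NUDCD2/HMMR with a hyaluronan-binding spindle protein, each at or above percentile 98.6 in every list.

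C11orf68/DRAP1 also had the longest peaks, at 32955, 33692 and 32702 bp. They extended 31676, 31552 and 31675 bp on the side of C11orf68 and 914, 1775 and 662 bp into DRAP1, a subunit of the transcriptional repressor NC2. These peaks also held the starts of CCDC85B, FIBP and FOSL1, the last of which encodes an AP-1 subunit. POLR2L/TSPAN4 followed at 15792, 21592 and 15915 bp, in a peak that also held the start of the tetraspanin gene CD151. At IQCG/LMLN the peaks were 12142, 12132 and 12684 bp wide and held the start of RPL35A. TMEM129/TACC3, where TACC3 encodes a spindle protein, was the exception among these 4, because its peaks of 11967, 12082 and 11769 bp held no other coding start and ran 10468, 10469 and 10435 bp into TACC3. The lengths of C11orf68/DRAP1, IQCG/LMLN and TMEM129/TACC3 differed little between lists, and that of POLR2L/TSPAN4 was longest in Hs578T replicate 1.

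Of 16 pairs taken from textbook knowledge, 13 met the rule. COL4A6/COL4A5 lay 1416 bp apart and PSMB1/TBP 1062 bp, and the canonical starts of TRMT2A/RANBP1 overlapped by 1122 bp. Both starts lay in 1 peak in the 3 lists for 11 of the 13, and the others were PDCD10/SERPINI1 and COL4A4/COL4A3. NPAT/ATM, which joins the coactivator of histone genes with the kinase of the DNA damage response, stood at percentiles 89.9, 92.7 and 91.1. PPAT/PAICS of purine synthesis stood at 89.5, 89.9 and 85.7, and HSPD1/HSPE1 of the mitochondrial chaperonin at 75.6, 73.7 and 68.3. The weakest 2 of those marked were SURF1/SURF2, at 41.8, 40.6 and 37.2 with widths of 586, 906 and 1159 bp, and COL4A1/COL4A2, at 52.3, 56.0 and 39.5. At PDCD10/SERPINI1, 829 bp apart, the peak passed the start of the neuroserpin gene SERPINI1 by 144 and 264 bp in the first 2 lists and did not reach it in Hs578T replicate 2.

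Type IV collagens form basement membranes and are encoded head to head. COL4A1/COL4A2 was covered by peaks of 2942, 2688 and 2481 bp that ran 2234, 1873 and 1818 bp into COL4A2 and 580, 687 and 535 bp into COL4A1. COL4A4/COL4A3, the chains of the kidney filter, had no peak in any list used here, with a GC content of 73.5% against 73.4% for COL4A1/COL4A2 and a CpG ratio of 0.750 against 0.870. The longer side was COL4A2 in each list.

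KIF18A, a mitotic kinesin, shares its promoter with METTL15, a methyltransferase of mitochondrial ribosomal RNA. Peaks there were 5143, 5433 and 5512 bp wide, with fold enrichments of 13.3, 14.1 and 13.8 and percentiles of 85.7, 89.2 and 92.3. They ran 2330, 2560 and 2543 bp into KIF18A and 2580, 2640 and 2736 bp into METTL15, nearly evenly. Of 25 genes of TWEAK signalling, NAD synthesis and the study's dependency genes, listed with the study known, 2 were paired. Beside KIF18A this was NMNAT1, an enzyme of NAD synthesis, which lay 84 bp from LZIC and had peaks of 1826, 1857 and 1674 bp at percentiles 83.4, 82.3 and 82.1. Genes that the study chose from its own data are not independent evidence here. The other kinesins in pairs were KIF1C, KIF4A, KIF9, KIF15, KIF20A and KIF24, so 7 of 39 kinesin genes were paired and each of the 7 was marked in the 3 lists, compared with 19 of 32 unpaired ones in each list. Over all coding genes 9.49% were paired. Of all paired promoters 92.7% to 93.9% were marked, and of all unpaired ones 52.6% to 54.5%. The kinesin shares marked, and the 2 of 25 paired above, lay near these values and are no result about those genes. Peaks of the other 6 kinesin pairs were between 1344 and 3059 bp wide, narrower than those of KIF18A.

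**Figure D5:**
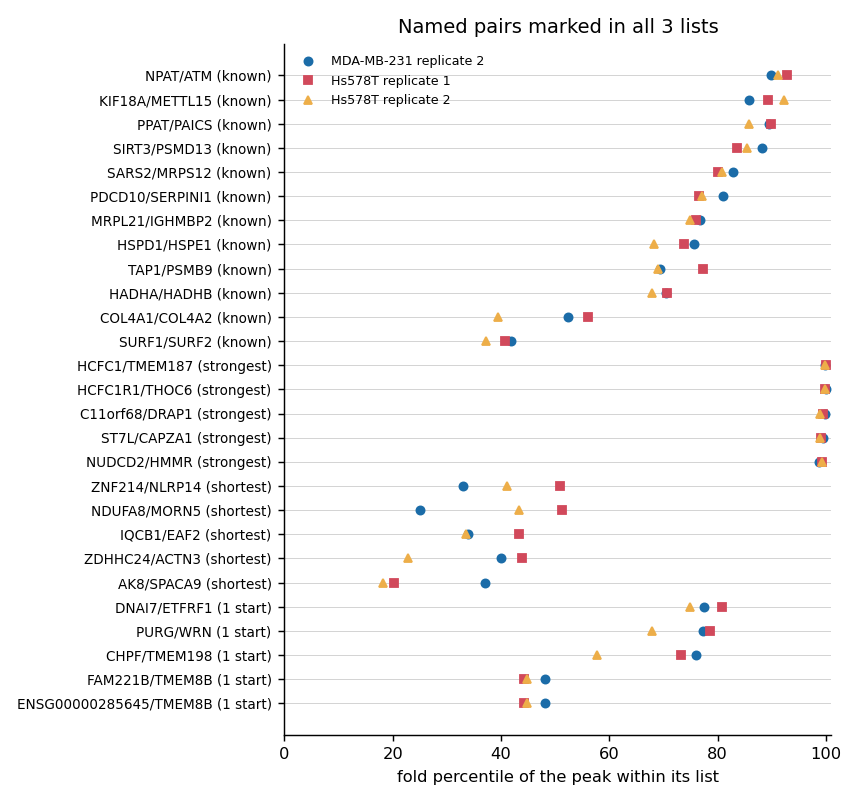
Percentile of fold enrichment within its own list for named pairs marked in the 3 large lists, one point per list. Textbook pairs (known) span 37.2 to 92.7, and the 5 strongest pairs lie at 98.6 or above. The label shortest marks pairs with the narrowest peaks, and 1 start marks pairs with a single start in a peak.

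Of the gene groups examined, histone genes had the widest peaks and the most unmarked pairs. Of 69 replication-dependent and related histone genes, 26 were paired, mostly an H2A with an H2B gene, and 16 of the 26 were marked in each list, close to the share of all coding promoters. Unpaired histone genes were marked in 27, 27 and 28 of 43. H2BC11/H2AC11 had fold enrichments of 27.4, 21.5 and 17.4 and widths of 5866, 6029 and 5672 bp. H2BC21/H2AC20 reached 32.8, 27.7 and 21.2, and the neighbouring pairs H2BC13/H2AC13 and H2AC14/H2BC14 lay together in 1 peak of 10294, 9770 and 9169 bp. The median width over marked paired histone genes was 6033 bp, compared with 1877 to 2040.5 bp over all marked paired promoters. H2AC1/H2BC1, H2AC7/H2BC7, H2BC8/H2AC8, H2AC25/H2BC26 and H3C7/H2BC9 had no peak in any list used here. H2AC25/H2BC26 had the highest CpG ratio among such pairs, 1.07. Histone genes are near-identical copies, and how reads mapping to several copies were treated was not given in the sources used here.

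Several other gene groups are given beside the 9.49% of all coding genes that were paired and the 92.7% to 93.9% of paired promoters that were marked. Among mitochondrial ribosomal proteins 26 of 78 genes were paired, and 26 of 26 paired and 52 of 52 unpaired ones were marked in each list. Subunits of respiratory complex I were paired in 13 of 38 cases, with 13 of 13 marked in each list. DNA repair and replication genes were paired in 34 of 107 cases, with 33 of 34 marked in each list and the last lying where the running numbers jump. tRNA synthetases were paired in 8 of 35 cases and proteasome subunits in 5 of 39 (12.8%), and each of these was marked in each list. In these groups the unpaired genes were marked nearly as often, in 71, 72 and 70 of 73 for repair and replication and in 31 of 34 in each list for the proteasome. Zinc finger genes were paired in 38 of 508 cases (7.48%), below the share of all coding genes, with 36 of 38 marked in each list, compared with 384, 388 and 371 of 470 unpaired ones. By contrast 2 of 400 olfactory receptor genes and 0 of 94 keratin-associated genes were paired, and the single olfactory pair, OR11A1/OR2H1, was unmarked.

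Complex I genes showed how narrow such peaks can be. RNF113A/NDUFA1 had peaks of 2817, 3270 and 3848 bp and fold enrichments of 18.3, 20.3 and 17.1. NDUFA8/MORN5 had the narrowest mean peak of the marked pairs, at 430, 366 and 248 bp, with fold enrichments of 3.71, 5.25 and 4.37, and its peak covered a start, that of NDUFA8, only in Hs578T replicate 2. The other narrow ones were AK8/SPACA9 with 432, 369 and 273 bp, IQCB1/EAF2 with 264, 567 and 394 bp, ZNF214/NLRP14 with 396, 464 and 384 bp, and ZDHHC24/ACTN3 with 471, 437 and 386 bp. None of these 5 had both starts in a peak in any list.

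In 20 pairs the same single start lay in a peak in all 3 lists. The closest was DNAI7/ETFRF1, 77 bp apart, where peaks of 699, 803 and 712 bp covered ETFRF1, a mitochondrial regulator, and stopped short of DNAI7, a gene of ciliary dynein. At CHPF/TMEM198, 219 bp apart, peaks of 1230, 1513 and 1215 bp covered CHPF, an enzyme of chondroitin synthesis. At PURG/WRN the peaks covered WRN, a RecQ helicase, at FAM221B/TMEM8B they covered TMEM8B, and the overlapping annotation ENSG00000285645/TMEM8B gave the same result. Among others of the 20, named after their values were seen, the covered gene was RAD51C and not the germ-cell gene TEX14, CDK2 and not the melanosome gene PMEL, NDUFA13 and not the testis kinase gene TSSK6, and S100A13 and not S100A1. In further pairs of the 20 the covered gene was PCSK4 and not REEP6, and P2RX6 and not TUBA3FP. Whether broadly used genes were covered more often than their partners was not tested. Shared annotation makes some of the 20 the same locus, as IGBP1C/RAD51C and TEX14/RAD51C. At CCR10/CNTNAP1 the peak over CNTNAP1 stood at percentile 95.7 with 4713 bp in Hs578T replicate 1, and at 43.0 and 31.4 with 1731 and 1438 bp in MDA-MB-231 replicate 2 and Hs578T replicate 2.

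Pairs without a peak included genes best known from other tissues. Of the 984 pairs, 58 (5.89%) were marked in none of the 3 lists, against 40.7% of all coding promoters, and 9 of the 58 lay where running numbers jump. The remaining 49 included, named after their values were seen, the pairs of the hydrogen peroxide-producing dual oxidases and their maturation factors (DUOX2/DUOXA2 and DUOXA1/DUOX1), the sterol transporters ABCG5/ABCG8, the ovarian factor pair FOXL2/FOXL2NB, the small heat shock genes CRYAB/HSPB2, and the cancer-testis genes CT45A10/SAGE1 and CSAG1/MAGEA12. FOXA1/TTC6, with the pioneer factor of luminal breast cells, was also among them. CHDH/IL17RB, with a CpG ratio of 0.911, was the only pair without a histone gene among the 5 of highest CpG ratio. Median CpG ratio was 0.684 in the 58 unmarked pairs and 0.796 in the 914 marked in 3 lists, and 32 of the 58 were CpG-rich. Unpaired promoters marked in no list had a median of 0.370, and 2525 of 8007 were CpG-rich. Without promoters lying where the running numbers jump, a choice made after the values were seen, 24 of 49 pairs and 2397 of 7575 unpaired promoters were CpG-rich.

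Sequence around the midpoint of a pair, which can run past both starts, differed from that of other promoters in which motifs it held. In 300 bases centred on the midpoint of the pair, the ETS letters CCGGAAGT occurred in 155 of 984 pairs, or 15.8% (95% Wilson interval 13.6 to 18.2%). Of the unpaired promoters, 5.04% (4.73 to 5.37%) held them in 300 bases, from 250 before to 50 after the start, and of all coding promoters 6.15%. Taken in that same window, the paired genes held them in 16.8%. Among unpaired promoters that were CpG-rich and marked in the 3 lists the share was 8.76%. The intervals of pairs and of these promoters did not overlap.

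The GC box GGGCGG was found in 72.5% of pairs, 60.02% of unpaired and 61.3% of all coding promoters, and the order turned among CpG-rich promoters, with 76.6% of pairs and 83.3% of unpaired ones. CCAAT was found in 41.8%, 35.5% and 36.0%. The NRF1 letters occurred in 2.95%, 1.57% and 1.69%, and the YY1 letters in 2.64%, 1.26% and 1.44%. Between CpG-rich pairs and CpG-rich unpaired promoters marked in the 3 lists these shares were close, at 3.06% and 2.81% for NRF1 and 2.59% and 2.45% for YY1. TATAAA was rarer in pairs, at 4.47% against 10.3% and 9.73%, as were the AP-1 letters, at 1.32% against 3.77% and 3.58%. Among CpG-rich promoters TATAAA was found in 3.53% of pairs and 4.28% of unpaired ones, with overlapping Wilson intervals, and the AP-1 letters in 1.18% and 1.95%. By mark, the ETS letters occurred in 16.4% of the 914 pairs marked in 3 lists and in 2 of the 58 marked in none, and AP-1 letters in 12 and 1. The pair windows and the promoter windows are of equal length but are placed differently, and pair windows of neighbouring members can overlap.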

How the data were processed

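H3K27ac ChIP-seq libraries of MDA-MB-231 and Hs578T cells (2 replicates each, from the sample titles) were examined as peak lists. Replicates may differ technically as well as biologically, and the lists share 1 treatment. Per the study's methods and the submitters' processing notes, the authors trimmed reads with Trimmomatic, mapped them to hg38 with Bowtie2, called peaks per library with MACS2 against input and removed blacklisted regions. Versions and settings were not given in the sources used here. The deposited lists hold, per peak, a score, a fold enrichment (a ratio over local background) and −log10 p- and q-values. The score ranked peaks only in the strongest-peak alternatives, where ties were broken by the −log10 q-value and then by fold enrichment. Fold enrichment gave the percentile within a list, and the −log10 p-values were not used. Peaks called separately per library move with depth, which is unknown, and with the input.

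Start sites were those of Ensembl canonical transcripts in GENCODE release 44 on assembly 38. Sequence names and ends of the 135054 peaks fitted that assembly. Pairs, overlaps, Wilson and Newcombe 95% intervals and exact sign-flip tests over lists were computed with Python 3.11.15, numpy 2.4.6, pandas 2.3.3 and scipy 1.17.1, and the pair search and overlaps were tested on simulated data. Rank correlations and counts are descriptions. Named pairs were a list of textbook pairs (16 given, 2 not reported here), the 5 strongest, longest and narrowest, pairs differing between lines, the 5 closest with a single start in a peak in all 3 lists, the 5 with the largest difference of the reaches, the 5 unmarked of highest CpG ratio (a ratio of at least 0.6), and 3 on either side of the distance limit. As an exception made after the values were seen, pairs lying where the running numbers jump were not named as unmarked. Members and gene lists were chosen with earlier results of these data known. Alternatives were other windows, peak thresholds, distances, start sites and comparison classes, and each list left out. Jumps in the running numbers, 1 pair per locus and strength by distance over every marked pair were added after seeing the data.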

Additional observations from a re-analysis of the deposited data

How the results depend on the processing

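The 5 main results were recomputed under the alternatives, giving 90 values, of which 56 moved by less than the SD over the 3 lists, 32 moved by more and 2 turned sign. Of the 58 values of the 3 differences between paired and unpaired promoters, 56 were above 0. The difference in median width was -32.0 bp with a largest distance of 300 bp and -63.0 bp in the strongest 50% of peaks, where the cause was not tested. In the strongest 50%, the share of paired promoters marked was 81.0% and its difference 40.5 points. The difference in percentile, taken among the kept peaks only, was 2.19, and the share of pairs in 1 peak was 78.4%. With 300 bp these values were 92.6%, 38.7 points, 3.30 and 89.2%. With 2 kb as the largest distance the share marked was 92.0%, the differences 38.5 points and 187 bp, and the share in 1 peak 84.1%. With the start base itself in a peak the share was 89.6% and the differences 41.6 points, 51.3 bp (-19.0 to 120.5 bp over the lists) and 4.27 percentiles. A window of 2 kb gave a difference of 38.6 points, and covering at least 50% of the window gave a share of 84.8% and a difference of 43.2 points. Against unpaired genes without any divergent start the differences were 42.9 points, 186 bp and 7.62 percentiles, and against those with no coding start within 10 kb, 40.7 points. CpG-rich promoters gave a share of 95.6% and differences of 21.8 points and 5.37 percentiles. Without multigene families the difference was 38.8 points. With all 4 lists the share was 70.1%, the difference 29.7 points and the share in 1 peak 65.8%, because the list of 209 peaks marked no pair. Without promoters in jumps of the numbering the share was 94.3% and the difference 39.2 points. Each list left out in turn gave shares marked of 93.2 to 93.8%, differences of 39.4 to 39.9 points, 100 to 141 bp and 6.07 to 6.42 percentiles, and shares in 1 peak of 87.4 to 88.4%. Values of the other settings, not printed here, were within the SD. No paired analysis was possible because the 2 lines share 1 replicate number among the lists compared and no test was made between them. Depth is unknown, so an unmarked promoter may be one whose signal was under the threshold of its list.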

Other observations

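Among pairs just outside the distance rule, the 39, 44 and 36 pairs more than 1000 and up to 1500 bp apart that lay in 1 peak in MDA-MB-231 replicate 2, Hs578T replicate 1 and Hs578T replicate 2 had median widths of 2859, 2829.5 and 2968.5 bp and fold percentiles of 87.0, 78.9 and 84.6. Beyond that and up to 2000 bp, the 22, 22 and 20 such pairs had widths of 3208.5, 3465 and 3410.5 bp and percentiles of 73.4, 79.7 and 72.8. Here too, only peaks longer than the distance enter these medians. Over every pair with a peak within 1 kb, the percentiles were 77.0, 75.5 and 72.7 in the nearer bin. In the farther bin they were 67.5, 66.4 and 68.3. Given 1 covered start, the other was in the same peak for 63.9% and 74.6% of pairs in the nearer bin in the first 2 lists, compared with 27.8% and 30.3% of unpaired peaks running as far upstream.

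Of the tRNA synthetase pairs, HARS1/HARS2 joins the cytosolic and the mitochondrial enzyme for histidine, 85 bp apart, with peaks of 1877, 1645 and 2525 bp and percentiles of 74.9, 80.9 and 76.0. LYRM4/FARS2, which joins a factor of iron-sulfur cluster assembly with the mitochondrial enzyme for phenylalanine, had fold enrichments of 20.0, 13.7 and 11.7. For MDA-MB-231 replicate 1, 12 of 18075 unpaired promoters were marked, and 0 of 1895 paired ones.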
